A study of Mus musculus with 8 samples.

Results

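Barcodes in which mitochondrially encoded RNA made up most of the counted molecules were examined in colon tissue of mice on 2 diets. A barcode stands for 1 droplet that was called as a cell, and a UMI (unique molecular identifier) for 1 counted RNA molecule. A barcode was chosen by its own counts: it was called mitochondria-led when it had at least 100 UMIs, when genes of the mitochondrial genome took at least 50% of them, and when 4 haemoglobin genes (Hba-a1, Hba-a2, Hbb-bs and Hbb-bt) took less than 25%. This left 235 barcodes, 8.93% of the 2632 barcodes with at least 100 UMIs and part of 8588 barcodes in all. The comparison class, called other barcodes, holds the 1403 barcodes of at least 100 UMIs that passed the haemoglobin limit and had a mitochondrial share under 50%. The C57BL/6 mice had eaten corn oil with cellulose (4 mice, CO1 to CO4) or fish oil with pectin (4 mice, FP1 to FP4) for 3 weeks. Age and sex are not given in the labels used here. A library was made for each mouse from 2 cuts of 50 µm through a rolled, formalin-fixed and paraffin-embedded colon, and profiled with a probe-based assay that counts fixed RNA through pairs of gene-specific probes. The labels name colonocytes, which absorb water and salts at the colon surface, but the sections held the whole colon wall. The series title places its question in ferroptosis, an iron-dependent form of cell death driven by lipid peroxidation.

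Mitochondria keep a small genome of their own, which encodes core subunits of the respiratory chain and of ATP synthase, while all other proteins of these complexes are made from nuclear genes and imported. Nearly all of its protein-coding genes are copied from 1 strand as a long transcript that is cut into mRNAs, and mt-Nd6 is the only one of them read from the opposite strand. Colonocytes are rich in mitochondria and burn butyrate made by bacteria from fibre. In droplet data a high mitochondrial share is a widely used sign of a damaged cell, since cytosolic RNA can leave a cell while its mitochondria stay. The rule above selects on the mitochondrial share, so that share is a description here, and the results are about the nuclear RNAs that remain and about the makeup of the mitochondrial RNA.

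Some neighbouring mitochondrial genes share bases. The stretches shared by 2 pairs are shown because the results below compare these genes one by one. The first is the stretch at the end of mt-Atp8 and the start of mt-Atp6, both subunits of ATP synthase, at chrM:7927-7969 on the plus strand of GRCm38 (43 bases, with the start codon of mt-Atp6 in capitals). The second is the stretch where mt-Nd5 and mt-Nd6 end head-on on opposite strands, at chrM:13552-13565, written on the plus strand (14 bases, with the stop codon of mt-Nd5 in capitals). Where the probes bind was not analysed here.
mt-Atp8/mt-Atp6: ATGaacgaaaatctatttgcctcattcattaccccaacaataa
mt-Nd5/mt-Nd6: ttaatctcgagTAA

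Libraries held 34758 to 245476 UMIs and 106 to 5180 barcodes. The lowest barcode had 341 UMIs among the mitochondria-led ones of CO3 and 216 among those of CO4, whereas in CO1, FP2 and FP3 they started at the limit of 100. Libraries run together can catch the same droplet. By the droplet part of their barcodes, the libraries fell into 2 groups of 4, with 189 shared droplets inside the groups and 24 across them. These groups are called pools, as a name for this overlap (CO1, CO2, CO3 and FP1, then CO4, FP2, FP3 and FP4), and 16 of the 235 mitochondria-led barcodes shared a droplet within their pool, against 122 of 1403 other barcodes. No mitochondria-led barcode had such a droplet partner that was also mitochondria-led. In all, 6 whole barcodes occurred in 2 libraries, and 0 of these were mitochondria-led.

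Mitochondria-led barcodes were spread very unevenly over mice. CO1 to CO4 held 27, 1, 25 and 22 of them, which is 11.02%, 0.265%, 23.6% and 4.17% of their barcodes of at least 100 UMIs (exact 95% interval 15.9 to 32.8% for CO3). FP1 to FP4 held 0, 36, 122 and 2, which is 0%, 8.05%, 24.3% and 0.685% (20.6 to 28.3% for FP3). FP3 alone held 51.9% of the class. A count of 0 in the 135 barcodes of FP1 allows a share of up to 2.22% by the 3-count limit, and of up to 2.70% by the exact interval. The diets overlapped, with a mouse under 1% and a mouse over 20% in each. In fish oil/pectin mice the high end was FP3 alone, whose barcodes were mostly under 200 UMIs.

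**Figure D1:**
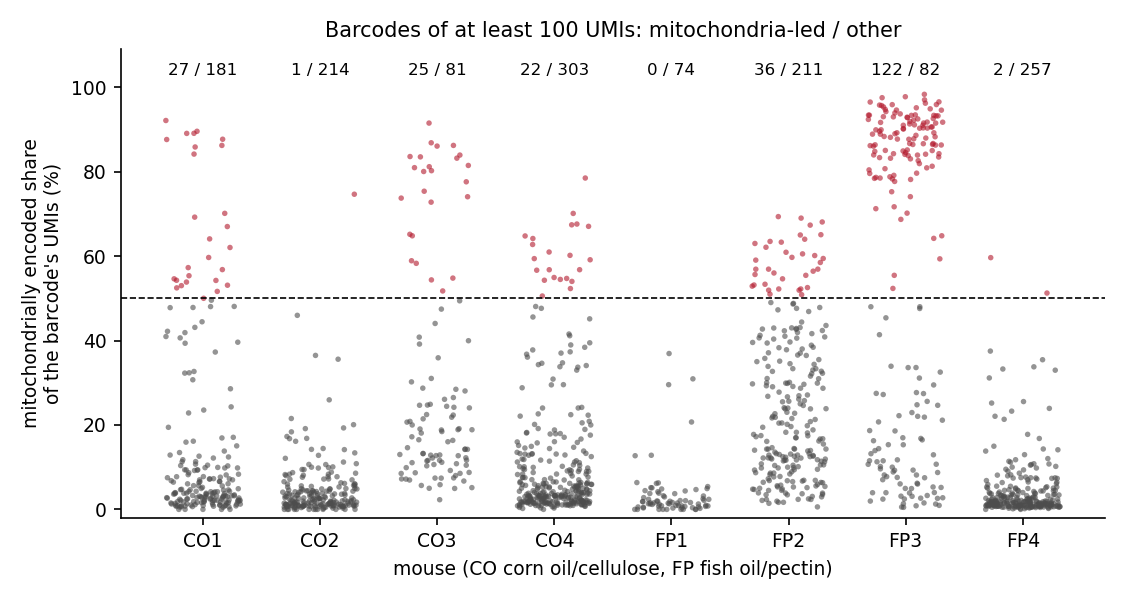
Mitochondrially encoded share of the UMIs of each barcode of at least 100 UMIs (vertical axis, percent) by mouse (horizontal axis). Each point is a barcode, red at or above the dashed 50% line and grey below it, and the numbers above count the mitochondria-led and the other barcodes. FP3 and CO3 have a separate upper cloud, while FP2 thins out towards 70%.

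The distribution of the mitochondrial share also differed between mice. In FP3, 116 of 122 mitochondria-led barcodes had a mitochondrial share of at least 70%, as did 18 of 25 in CO3 and 10 of 27 in CO1. In CO4 only 2 of 22 reached 70%, and in FP2 0 of 36 did. The median mitochondrial share was 62.0% in CO1, 80.0% in CO3, 59.3% in CO4, 57.7% in FP2 and 88.5% in FP3. In FP3 the class stood apart, with 10 barcodes from 30 to 50% and 6 from 50 to 70% below those 116. In FP2 the counts ran down, from 98 barcodes at 10 to 30% through 56 to 36. Over all mice, 32 members lay within 5 points above the 50% limit and 23 barcodes within 5 points below it. The nearest values inside were 50.0%, 50.5% and 50.9%, and outside 49.5%, 49.4% and 49.0%. The haemoglobin limit removed 0 barcodes with a mitochondrial share of at least 50%, and the highest haemoglobin share in the class was 2.97%. It left out 994 barcodes of at least 100 UMIs with a lower mitochondrial share.

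By diet, no measure of the class differed beyond the spread between mice. Mitochondria-led barcodes made up 9.76% ± 10.2 (SD, n = 4) of barcodes of at least 100 UMIs in corn oil/cellulose mice and 8.26% ± 11.3 (SD, n = 4) in fish oil/pectin mice (two-sided exact permutation p = 0.800). They held 5.44% ± 6.54 and 3.87% ± 5.70 of library UMIs (exact permutation p = 0.571, n = 4 and 4). Their median number of non-mitochondrial UMIs was 93.1 ± 44.5 (n = 4) and 80.8 ± 85.1 (n = 3, since FP1 had none; exact permutation p = 0.829). Adjusted over the 3 measures, each p was 0.829, and the smallest p the designs allow is 0.0286. With a minimum of 200 UMIs the share of barcodes was 10.2% against 1.58%, a difference of -8.62 points, and that of library UMIs 5.16% against 0.817%, a difference of -4.34 points (exact permutation p = 0.200 for each, n = 4 and 4). Within pool 1 the share of barcodes was 11.6 points lower in the single fish oil/pectin mouse, and within pool 2 it was 6.84 points higher in the fish oil/pectin mice, so the direction was not kept.

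The barcodes were shallow. They held 50584 UMIs, of which 37989 (75.1%) were mitochondrial, 108 came from haemoglobin genes and 12487 from other nuclear genes, which are called nuclear UMIs below. The median was 140 UMIs, 33 nuclear UMIs and 41 genes per barcode, against 254 UMIs and 237 nuclear UMIs in other barcodes, and 162 of 235 had under 200 UMIs. The median number of nuclear UMIs was 47 in CO1, 100 in CO3, 150 in CO4, 49.5 in FP2 and 15 in FP3. With so few molecules, nuclear genes were read from sums over each mouse's barcodes.

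Among the mitochondrial RNAs, every mitochondria-led barcode had a mitochondrially encoded gene as its leading gene. This was mt-Co1 in 79 barcodes and mt-Co2 in 64, both subunits of cytochrome oxidase (complex IV of the chain). It was mt-Nd6, a subunit of NADH dehydrogenase (complex I), in 61 and mt-Atp6, the proton channel subunit of ATP synthase, in 31. Of the given markers mt-Atp6, mt-Atp8, mt-Cytb, mt-Nd1 and mt-Co3, all 5 were seen in 211 of 235 barcodes and at least 2 in each. All 13 mitochondrial mRNAs were seen in 102 barcodes, and the median barcode had 12. These counts follow in large part from the rule, which selected on the same genes, and are given as a description. Counts of different mitochondrial genes depend on their probes, so only the same gene is compared between classes.

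Makeup of the mitochondrial RNA was compared between classes in the 5 mice with at least 10 mitochondria-led barcodes (CO1, CO3, CO4, FP2 and FP3), as a description without a test. Summed by complex, the genes differed in direction. Cytochrome oxidase mRNAs (mt-Co1, mt-Co2 and mt-Co3) together took 41.5% ± 3.87 of mitochondrial UMIs in mitochondria-led barcodes and 35.2% ± 6.12 in other barcodes (SD, n = 5), higher in 5 of 5 mice. ATP synthase mRNAs took 21.1% ± 7.17 and 16.1% ± 5.44, higher in 4 of 5, FP2 being the exception. The 1 mRNA of complex III, mt-Cytb, took 3.80% ± 0.839 and 4.28% ± 0.420, lower in 4 of 5. The 6 complex I mRNAs of the main strand took 13.3% ± 2.77 and 17.6% ± 4.06, lower in 5 of 5 mice. By mouse, their share was 13.3%, 13.2%, 9.89%, 17.6% and 12.6% in mitochondria-led barcodes of CO1, CO3, CO4, FP2 and FP3, and 23.5%, 17.1%, 13.2%, 19.5% and 14.6% in other barcodes. The gap was widest in CO1 and narrowest in FP2 and FP3. Counted over the main strand alone, without mt-Nd6, complex I stayed lower in 5 of 5 mice (17.1% ± 5.69 against 24.6% ± 7.88). On this count complex III was also lower in 5 of 5 (4.74% ± 0.716 against 5.88% ± 0.618). Complex IV stayed higher in 5 of 5 (52.2% ± 3.01 against 47.9% ± 4.70). That complex IV gap was wide in CO1 (54.5% against 40.2%). It was hardly present in FP3 (50.6% against 50.2%) and CO3 (47.6% against 46.8%).

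**Figure D2:**
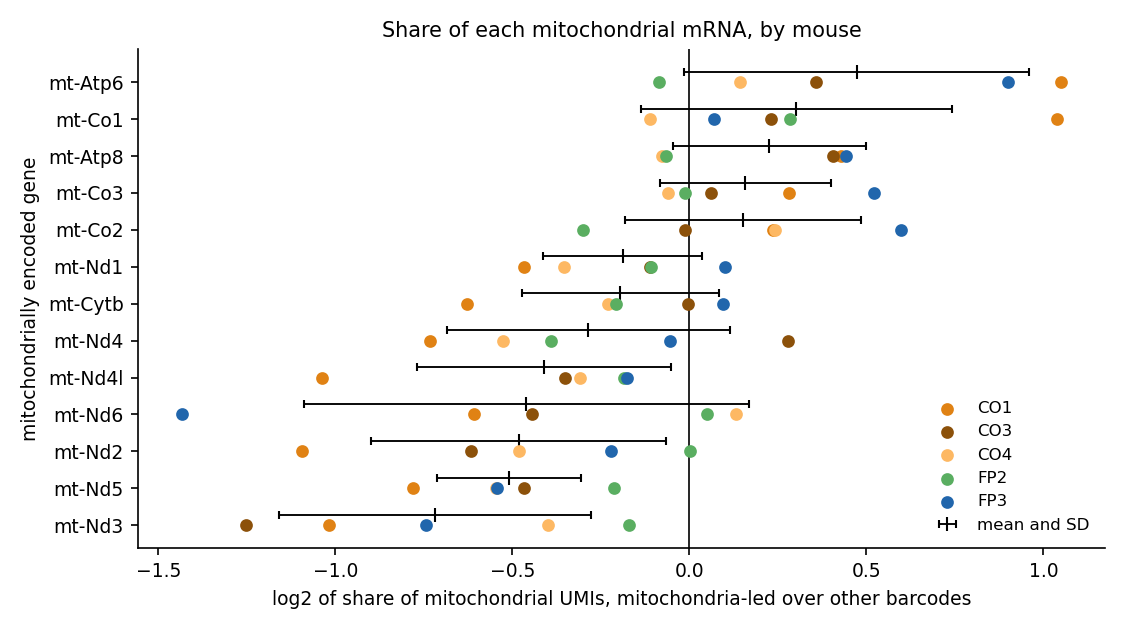
Log2 ratio of each gene's share of mitochondrial UMIs between mitochondria-led and other barcodes (horizontal axis) for the 13 mitochondrial mRNAs (vertical axis). Coloured points are 5 mice, and black bars give the mean and SD. The 3 genes mt-Nd3, mt-Nd4l and mt-Nd5 are below 0 in all 5 mice, and the point of FP3 for mt-Nd6 lies far to the left.

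Single genes followed the same order in part. The mean log2 ratio of shares was -0.72 ± 0.44 for mt-Nd3 (chrM:9459-9806), -0.51 ± 0.20 for mt-Nd5 (chrM:11742-13565) and -0.41 ± 0.36 for mt-Nd4l (chrM:9877-10173), all 3 lower in 5 of 5 mice (SD, n = 5). The share of mt-Nd3 was 1.82%, 0.985%, 1.32%, 3.27% and 1.49% of mitochondrial UMIs in mitochondria-led barcodes of CO1, CO3, CO4, FP2 and FP3, and 3.68%, 2.35%, 1.74%, 3.69% and 2.502% in other barcodes. On the other side, the mean log2 ratio was 0.47 ± 0.49 for mt-Atp6 (chrM:7927-8607) and 0.30 ± 0.44 for mt-Co1 (chrM:5328-6872), each higher in 4 of 5 mice. The other mRNAs of these complexes, mt-Co2, mt-Co3 and mt-Atp8, were each higher in only 3 of 5. In CO1 mt-Co1 took 25.9% of mitochondrial UMIs in mitochondria-led barcodes and 12.6% in other barcodes, and mt-Atp6 11.3% and 5.46%. A single barcode of CO1 held 25.5% of its mt-Co1 UMIs and 29.7% of its mt-Atp6 UMIs; without it mt-Co1 took 25.3% and mt-Atp6 10.4%. The neighbours that share bases did not keep a fixed ratio: mt-Atp6 to mt-Atp8 counts were 1.46 in mitochondria-led and 0.9496 in other barcodes of CO1, 1.85 and 1.35 in FP3, and 1.09 and 1.11 in FP2.

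The gene of the opposite strand, mt-Nd6 (chrM:13552-14070, minus strand, GRCm38), varied most between mice. It took 22.7%, 14.98%, 18.5%, 34.2% and 10.8% of mitochondrial UMIs in mitochondria-led barcodes of CO1, CO3, CO4, FP2 and FP3, and 34.6%, 20.4%, 16.9%, 33.0% and 29.3% in other barcodes. It was lower in CO1, CO3 and FP3 and slightly higher in CO4 and FP2, and the mean log2 ratio was -0.46 ± 0.63 (SD, n = 5). Over single barcodes of the class its share ran from 1.89% to 65.1% with a median of 14.5%. Split by mitochondrial share, mt-Nd6 in FP3 took 31.2% in barcodes with 30 to 50% mitochondrial UMIs, 24.2% with 50 to 70% and 10.4% above 70%. In CO1 the same steps gave 32.6%, 31.8% and 17.3%, and in CO3 19.3%, 14.8% and 15.02%. In CO4 they gave 15.8%, 18.4% and 19.7%, the last from 2 barcodes. FP2, which had no barcode above 70%, stayed at 32.9% and 34.2%. A lower mt-Nd6 share above 70% than below it was thus plain in FP3 and CO1, where the 70% bin held 116 and 10 barcodes.

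**Figure D3:**
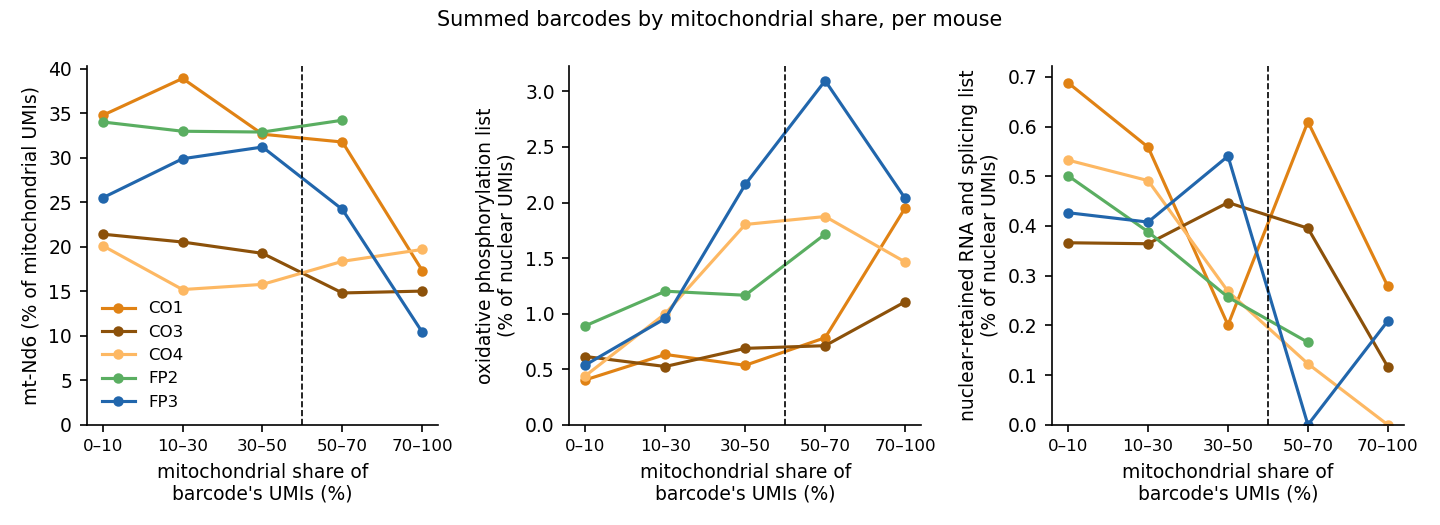
Share of mt-Nd6 among mitochondrial UMIs (left), of the oxidative phosphorylation list among nuclear UMIs (middle) and of the nuclear-retained RNA and splicing list among nuclear UMIs (right), for barcodes summed by mitochondrial share (horizontal axis, percent) in 5 mice. The dashed line marks the 50% limit; mt-Nd6 reaches 10.4% in FP3 and 17.3% in CO1 in the highest bin and 34.2% in FP2 in its last one.

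Barcodes under 100 UMIs were left out of both classes by the depth limit, and 3 of the 5 mice had them. They are a mixture: 2231 of 4935 in CO1, 158 of 522 in FP2 and 182 of 274 in FP3 met the mitochondrial and haemoglobin limits of the class themselves. In FP3 the mitochondrial makeup of mitochondria-led barcodes differed from that of barcodes under 100 UMIs by 5.52 points (the part of the UMIs that would have to change gene for the 2 makeups to match) and from that of other barcodes by 20.8 points. In CO1 it differed by 22.9 points from the first and by 23.7 from the second, and in FP2 by 4.67 and 5.16 points. The other barcodes of CO1 differed from its barcodes under 100 UMIs by 3.99 points. How far the barcodes under 100 UMIs that meet the share limits set these distances was not tested.

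The most abundant nuclear RNAs that remained were those of the colon epithelium. The 12487 nuclear UMIs fell on 5232 genes, of which 2826 had a single UMI and 34 had at least 20. The 10 genes with most UMIs together took 5.45% of nuclear UMIs. They were Tff3 (97 UMIs), a trefoil peptide of goblet cells, Saa1 (83), an acute-phase protein made by colonocytes, and Fcgbp (78) and Muc2 (72), both components of goblet cell mucus. Next came Phgr1 (70), a small protein of the intestinal epithelium, Krt8 (69), an epithelial keratin, Lypd8 (56), a secreted colonocyte protein that binds flagellated bacteria, Car1 (54), a carbonic anhydrase, Lgals4 (52), a galectin of the gut lining, and Atp1b1 (49), a subunit of the sodium pump. The ranking pools mice of unequal depth, and CO4 alone gave 54 of the 83 Saa1 and 43 of the 78 Fcgbp UMIs. Saa1 was at 39.8, 13.4, 153, 55.3 and 35.8 UMIs per 10000 nuclear UMIs in CO1, CO3, CO4, FP2 and FP3 against 6.75, 78.6, 38.8, 39.3 and 40.1 in other barcodes, higher in 3 of 5 mice. It has a near-identical neighbour, Saa2, so its count is uncertain. Tff3 was found at 46.4, 50.3, 125, 88.5 and 67.1 UMIs per 10000 nuclear UMIs in CO1, CO3, CO4, FP2 and FP3, and at 9.94, 29.0, 39.7, 44.996 and 36.4 in other barcodes, higher in 5 of 5 mice but not called (edgeR adjusted p = 0.442). Muc2 was at 79.6, 60.4, 59.5, 33.2 and 62.6 per 10000 against 15.6, 44.1, 145, 43.7 and 54.9, higher in 3 mice and lower in CO4 and FP2.

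Nuclear genes were compared between mitochondria-led and other barcodes of the same mouse with edgeR's quasi-likelihood test on summed counts, with the mouse as a block. In the 5 mice the sums held 12060 nuclear UMIs in mitochondria-led and 285529 in other barcodes, and 154 genes passed the filter on low counts. These genes carry 20.8% of the nuclear UMIs of mitochondria-led barcodes. Of them, 7 were called at an adjusted p under 0.05 (4.55%): 2 rose (1.3%) and 5 fell (3.25%). An unadjusted p under 0.05 was reached by 29 genes, and the median log2 fold change of all genes tested was -0.29. In this fit TMM was applied to totals over the tested genes, which were 288 to 926 UMIs in mitochondria-led sums. The alternative called UMI totals as the scaling used totals over all nuclear genes without TMM. With it the median moved to 0.30 and the calls to 12 higher and 0 lower of 154 (7.79%). A direction here is thus relative to the scaling, and the 2 changes were not separated. With genes filtered by their level in other barcodes, 15 of 158 were called (9.49%), 3 higher (1.9%) and 12 lower (7.59%). Without a count filter, 169 of 16543 were called (1.02%), all 169 lower (1.02%). The member sums are small, so a gene could enter the test mainly through a high count in them. Other genes could enter mainly through a high level in other barcodes, so calls in both directions depend on the filter. The counts above are not counts over all nuclear genes.

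Phgr1, on chromosome 2 (118772769 to 118778165, GRCm38), rose most clearly. It was found at 92.9, 23.5, 31.2, 38.7 and 93.9 UMIs per 10000 nuclear UMIs in mitochondria-led barcodes of CO1, CO3, CO4, FP2 and FP3, and at 4.26, 3.78, 7.48, 24.2 and 8.01 in other barcodes. It was higher in 5 of 5 mice, and the classes overlapped only through FP2, whose other barcodes had more than the mitochondria-led ones of CO3. Its fitted log2 fold change was 1.95 ± 0.45 (SE), with an edgeR adjusted p of 0.00219. The 60 UMIs came from 45 barcodes, with at most 4 in one. In barcodes under 100 UMIs Phgr1 was at 27.2, 36.2 and 26.6 per 10000 in CO1, FP2 and FP3, between the classes in all 3. Without FP3 its log2 fold change was 1.52 and its edgeR adjusted p 0.445, and without CO1 they were 1.74 and 0.0894.

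Fth1, the heavy chain of the iron store ferritin (chromosome 19, 9980598 to 9985098), was the second gene that rose. It was found at 53.1, 16.8, 48.2, 0 and 17.9 per 10000 in mitochondria-led and at 2.49, 7.21, 9.07, 5.46 and 4.32 in other barcodes, higher in 4 of 5 mice. FP2 was the exception, with 0 UMIs in 36 barcodes. The fit gave 1.51 ± 0.49 (log2, SE) and an edgeR adjusted p of 0.0465. Its 34 UMIs lay in 22 barcodes, 7 of them in a single one. The call was lost without any one of CO1, CO3, CO4 or FP3 (edgeR adjusted p between 0.109 and 0.504).

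**Figure D4:**
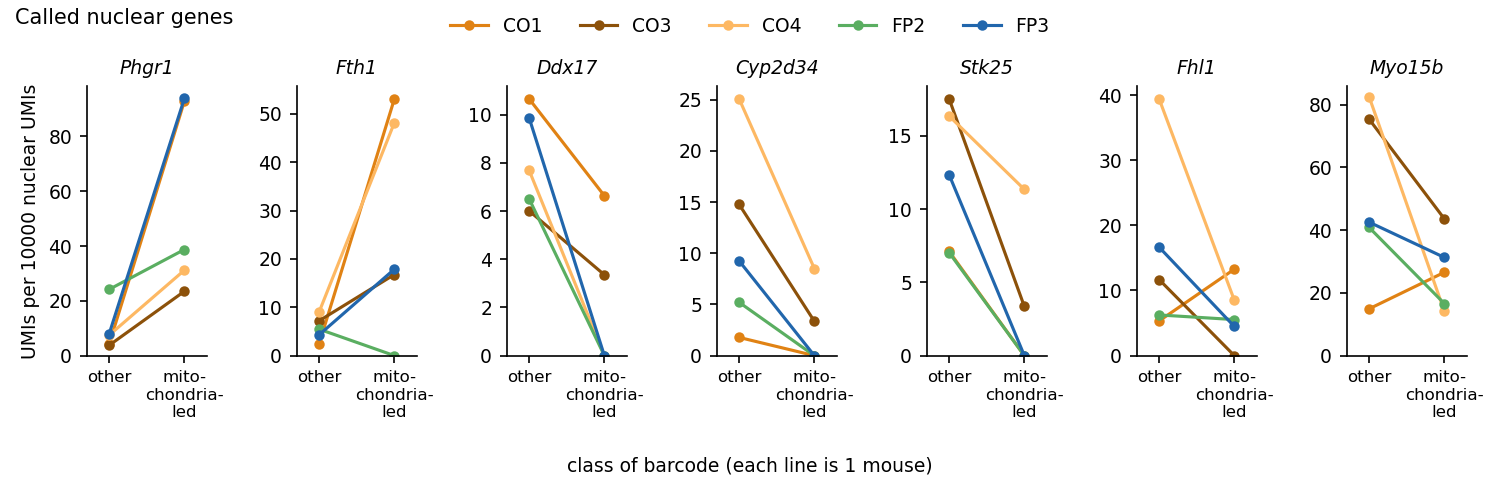
UMIs per 10000 nuclear UMIs (vertical axis, own scale for each gene) of the 7 called genes in other and in mitochondria-led barcodes (horizontal axis). Each line is 1 of 5 mice; Phgr1 is higher in all 5, and Ddx17, Cyp2d34 and Stk25 are lower in all 5.

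The 5 genes that fell were Ddx17, an RNA helicase of splicing (chromosome 15, 79527736 to 79546741), Cyp2d34, a cytochrome P450 (chromosome 15, 82615965 to 82620946), and Stk25, a protein kinase (chromosome 1, 93619751 to 93658659). The others were Fhl1, a LIM-domain protein (chromosome X, 56731787 to 56793346), and Myo15b, an unconventional myosin (chromosome 11, 115858406 to 115892603). Ddx17 had 1, 1, 0, 0 and 0 UMIs in mitochondria-led barcodes of CO1, CO3, CO4, FP2 and FP3, or 6.64, 3.35, 0, 0 and 0 per 10000, against 10.7, 6.01, 7.69, 6.50 and 9.86 in other barcodes. Its pooled ratio was 0.218, with an exact 95% interval of 0.0263 to 0.798 for counting error only, and its edgeR adjusted p was 0.0414. Myo15b had more UMIs: it was at 26.5, 43.6, 14.2, 16.6 and 31.3 per 10000 against 14.9, 75.3, 82.5, 40.8 and 42.5, lower in 4 of 5 mice and higher in CO1 (log2 fold change -1.50 ± 0.48, edgeR adjusted p = 0.0457). Cyp2d34 rested on 4 UMIs, Stk25 on 5 and Fhl1 on 7. These genes and Ddx17 passed the count filter mainly through other barcodes, the class in which they are higher, so their calls are given as a description. All 5 kept a negative log2 fold change under each alternative in which they were tested, and none was called with UMI totals as the scaling (edgeR adjusted p between 0.0722 and 0.398). Cyp2d34 belongs to a family of close paralogues, so its count is uncertain.

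Leaving out CO1 or FP3 left 0 genes called, with 26 and 35 at an unadjusted p under 0.05 (edgeR). The fold changes of the genes that fell were little smaller or larger without FP3, at -2.84 for Ddx17, -2.42 for Cyp2d34, -2.23 for Stk25, -2.08 for Fhl1 and -1.84 for Myo15b on the log2 scale. DESeq2 called 1 gene, Phgr1 (0.649%), with 27 at an unadjusted p under 0.05. Among genes that were not called, Igha and Dbi passed the filter mainly through mitochondria-led sums. Genes of smallest p with higher levels were Igha, the constant region of immunoglobulin A, Stard10, a lipid transfer protein, and Dbi, which binds acyl-CoA. They also included Ptms, parathymosin, Crip1, a small zinc-binding protein of the gut, and Cox8a, a subunit of cytochrome oxidase (edgeR adjusted p between 0.104 and 0.161). Those with lower levels were Rsrp1, Car4, a membrane carbonic anhydrase of colonocytes, and Mxd1, an antagonist of MYC (edgeR adjusted p between 0.0794 and 0.0867). Car4 was at 0, 0, 19.8, 5.53 and 8.94 per 10000 against 2.13, 24.5, 20.98, 11.96 and 22.2, lower in 5 of 5 mice, while Car1 was higher in 4 of 5.

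Of the cell type lists, the 3 epithelial ones took the largest shares. The epithelial list (15 genes such as Epcam and Krt8) took 3.19%, 1.41%, 3.34%, 2.93% and 3.26% of nuclear UMIs in mitochondria-led barcodes of CO1, CO3, CO4, FP2 and FP3, and 0.611%, 2.29%, 2.16%, 2.41% and 1.53% in other barcodes. It was higher in 4 of 5 mice and lower in CO3. The goblet list (14 genes) took 2.88% ± 0.840 against 1.73% ± 0.879 (SD, n = 5), higher in 5 of 5. The absorptive colonocyte list (17 genes) took 2.18% ± 0.772 against 1.55% ± 0.736, higher in 4 of 5 and again lower in CO3. A few genes carried this share: of its 272 UMIs over all mice, Saa1 gave 83, Car1 54 and Muc3 43. Slc26a3, like Car4, was lower in 5 of 5 mice and Aqp8 in 3 of 5, and Slc26a2 had 0 UMIs. Of its tested genes, 3 had a log2 fold change above 0 and 6 below. In barcodes under 100 UMIs of CO1, FP2 and FP3, the epithelial list stood at 1.83%, 2.43% and 2.55%, between the classes in all 3. Counting the 3 lists together, a mitochondria-led barcode had a median of 4 such UMIs in CO1, 5 in CO3, 14.5 in CO4, 4 in FP2 and 1 in FP3. Of the 37 barcodes with 0 such UMIs, 32 were in FP3. With so few, cell types were not assigned barcode by barcode. By mitochondrial share, these 3 lists took 1.13%, 6.33%, 6.48%, 6.09% and 3.06% of nuclear UMIs under 10% in CO1, CO3, CO4, FP2 and FP3. From 30 to 50% they took 6.96%, 4.82%, 7.65%, 6.72% and 9.46%, and from 50 to 70% 7.67%, 3.40%, 9.83%, 8.80% and 8.05%. Barcodes from 30 to 50% were thus above those from 50 to 70% in CO3 and FP3, and below them in CO1, CO4 and FP2. In the fit, where 7 of all 154 genes tested were called (4.55%), 10 epithelial genes were tested and 1 (Phgr1) rose. Of 9 colonocyte and 6 goblet genes tested, 0 were called. With so few genes, these counts are not read as results about the lists. The median log2 fold changes of the 3 lists were -0.22, -0.58 and 0.36 beside -0.29 for all genes tested. For the first 2 lists the median over genes and the summed share thus differ in sign.

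**Figure D5:**
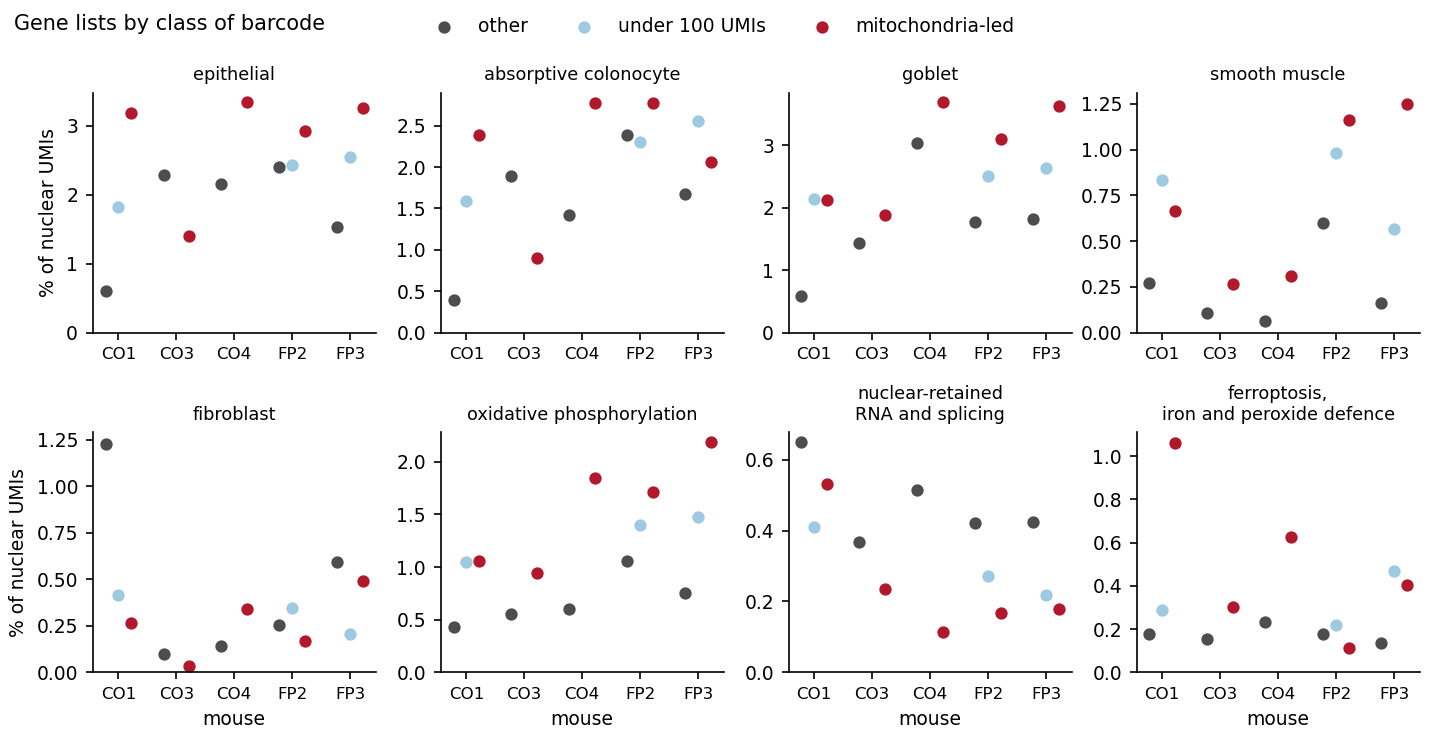
Share of nuclear UMIs (vertical axes, percent) taken by 8 gene lists in other barcodes (grey), barcodes under 100 UMIs (blue, where a mouse had them) and mitochondria-led barcodes (red) of 5 mice. Oxidative phosphorylation and smooth muscle points are higher in mitochondria-led than in other barcodes of every mouse. Points of the nuclear-retained RNA and splicing list, in which only protein-coding genes were counted, are lower in every mouse.

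RNA of other cell types was scarcer. The smooth muscle list (11 genes), which marks the muscle layers of the colon wall, took 0.664%, 0.268%, 0.312%, 1.16% and 1.25% of nuclear UMIs in CO1, CO3, CO4, FP2 and FP3 against 0.270%, 0.108%, 0.0616%, 0.601% and 0.160% in other barcodes. It was higher in 5 of 5 mice, from 78 UMIs in these mice, with 10 of 11 genes seen and Lmod1 at 0. Of its genes, Myh11, the smooth muscle myosin, Tagln, an actin-binding protein, and Flna, a filamin, were tested and 0 of 3 were called. Over all genes tested it was 7 of 154 (4.55%). Myh11, Tagln and Flna passed the filter mainly through their counts in mitochondria-led sums, so the direction of their fold changes is not read. In barcodes under 100 UMIs the list stood at 0.835%, 0.983% and 0.564% in CO1, FP2 and FP3. The fibroblast list (13 genes) took 0.259% ± 0.173 against 0.463% ± 0.470, lower in 4 of 5 mice, and 4 of its genes, Col1a2 and Lum among them, were at 0. The B and plasma cell list took 0.332%, 0.134%, 0.0567%, 0.277% and 0.805% against 0.174%, 0.0652%, 0.0561%, 0.226% and 0.129%, also higher in 5 of 5 mice, but hardly so in CO4. It held 34 UMIs, 18 of them in FP3 and 17 from Igha, with Cd79a and Ms4a1 at 0. Endothelial markers had 1 UMI in all, macrophage and myeloid markers 3, T and natural killer cell markers 2 and enteroendocrine and tuft markers 4. Crypt base and progenitor markers had 11, with Lgr5, Olfm4 and Mki67 at 0, adipocyte and mesothelial markers had 6, interstitial cell and enteric nerve markers 5, and erythroid genes other than haemoglobin 9. At 12487 nuclear UMIs these lists are near the detection limit.

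Nuclear genes for oxidative phosphorylation, which encode the imported partners of the mitochondrial subunits, took a higher share in every mouse. The list (49 genes in the files) took 1.06%, 0.939%, 1.84%, 1.72% and 2.19% of nuclear UMIs in mitochondria-led barcodes of CO1, CO3, CO4, FP2 and FP3, and 0.433%, 0.558%, 0.597%, 1.06% and 0.758% in other barcodes. The 2 mice with only 1 and 2 mitochondria-led barcodes, CO2 and FP4, had 5.48% (4 UMIs) and 1.41% (5 UMIs) against 0.346% and 0.517%. The leading members were Cox8a (22 UMIs), Atp5o of ATP synthase (18), Ndufa1 of complex I (12), and Ndufb8 and Sdhb (9 each). Only Cox8a and Ndufa1 had counts high enough for the test, and 0 of 2 were called, beside 7 of 154 over all genes tested. Ndufa1 did not enter when genes were filtered by their level in other barcodes, so its fold change is not read here. The share was also higher at a higher mitochondrial share below the 50% limit in CO4, where the list took 0.441% under 10%, 1.00% from 10 to 30%, 1.80% from 30 to 50% and 1.87% from 50 to 70%. In FP3 the list took 0.538%, 0.958% and 2.16% (16 UMIs) in the same steps below the limit, then 3.10% from 50 to 70% and 2.04% above 70%. CO1 had 0.404%, 0.633% and 0.535% in the steps below the limit, and FP2 0.891%, 1.20% and 1.17%. In CO3 the list stayed between 0.525% and 0.712% up to 70% and stood at 1.11% above 70%. In barcodes under 100 UMIs it took 1.05%, 1.40% and 1.47% in CO1, FP2 and FP3.

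Other mitochondrial gene lists did not share this pattern. The list for mitochondrial transcription, RNA and ribosomes (16 genes in the files) had 3 UMIs and took 0.0191% ± 0.0295 against 0.0658% ± 0.0175 in other barcodes. The list for import, carriers and dynamics took 0.249% ± 0.0938 against 0.218% ± 0.0351, higher in 2 of 5 mice. The tricarboxylic acid cycle list took 0.181% ± 0.0802 against 0.158% ± 0.0268, higher in 3 of 5, and the mitochondrial stress response list 0.125% ± 0.0771 against 0.0702% ± 0.0221, higher in 4 of 5. Fatty acid oxidation genes took 0.255% ± 0.0924 against 0.195% ± 0.0733, higher in CO1, CO3 and CO4 and lower in FP2 and FP3. Glycolysis genes took 0.331% ± 0.104 against 0.315% ± 0.119. Except for the first of these lists, the means differed by less than the SD between mice.

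The list named for nuclear-retained RNA and splicing took a lower share. Its non-coding RNAs (Malat1, Neat1, Kcnq1ot1, Meg3 and Xist) are not in the files. The genes counted encode proteins, mostly of splicing, so RNA held in the nucleus was not measured as such. This list (14 genes in the files, among them Ddx17) took 0.531%, 0.235%, 0.113%, 0.166% and 0.179% of nuclear UMIs in mitochondria-led barcodes of CO1, CO3, CO4, FP2 and FP3 against 0.650%, 0.369%, 0.515%, 0.421% and 0.425% in other barcodes, lower in 5 of 5 mice. It rested on 26 UMIs. FP4, with 2 mitochondria-led barcodes, went the other way, at 0.847% from 3 UMIs against 0.516%, and CO2 had 0 UMIs of the list in its single barcode. In the fit, 2 of its genes were tested and 1, Ddx17, fell, having passed the count filter mainly through other barcodes. Over all genes tested, 5 of 154 fell (3.25%). Barcodes under 100 UMIs stood at 0.409%, 0.271% and 0.219% in CO1, FP2 and FP3. Apoptosis and cell death genes took 0.126% ± 0.0940 against 0.220% ± 0.0252, lower in 5 of 5 mice from 18 UMIs. Immediate early and heat shock genes, which respond to tissue handling, took 0.483% ± 0.168 against 0.563% ± 0.199, lower in 2 and higher in 3 of 5 mice.

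Genes of ferroptosis, iron handling and peroxide defence, which the series title brings into view, took a share of nuclear UMIs of 0.111% to 1.06% against 0.136% to 0.233% in other barcodes (21 genes in the files). The share was higher in 4 of 5 mice, at 1.06% in CO1, 0.302% in CO3, 0.624% in CO4 and 0.402% in FP3, and lower in FP2 at 0.111% from 2 UMIs. Of the 58 UMIs in these mice, 34 came from Fth1, the only gene of the list with counts high enough for the test, and 10 of the 21 genes had 0 UMIs.

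Nuclear UMIs of mitochondria-led barcodes fell on genes with shorter annotated transcripts, a measure chosen after values were seen and given without a test. The median transcript length over UMIs was 2678, 2991, 2662, 2582 and 2616 bases in CO1, CO3, CO4, FP2 and FP3 and 3295, 2993, 3121, 2955 and 3062 bases in other barcodes, which is shorter in 5 of 5 mice but by hardly anything in CO3 (longest GENCODE transcript of each gene). Genes with transcripts under 1000 bases gave 8.93%, 6.16%, 11.3%, 10.2% and 11.6% of nuclear UMIs against 3.57%, 5.78%, 4.72%, 7.42% and 5.69%. They also gave a higher share in CO2 and FP4. Phgr1, with 542 bases, made up 2.76% to 10.4% of these short-transcript UMIs in the 5 mice. With the genes of all lists left out, the shares were 6.37%, 4.86%, 7.68%, 6.70% and 8.39% against 3.15%, 4.50%, 3.62%, 5.76% and 4.36%, still higher in 5 of 5. In barcodes under 100 UMIs the share over all genes was 7.06%, 8.56% and 9.91% in CO1, FP2 and FP3, between the classes in each. Fixed tissue holds RNA in pieces and probes cover a short target, so length here describes the annotated gene, not the RNA in the section.

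Diet could not be compared across nuclear genes within the class as planned, since only 2 fish oil/pectin mice had at least 10 mitochondria-led barcodes. With every mouse that had at least 1 (4 against 3), 21 genes could be tested and 0 were called (0%), with 1 at an unadjusted p under 0.05 and a smallest edgeR adjusted p of 0.311. With the pool in the model the calls were also 0, with 2 at an unadjusted p under 0.05 and a smallest edgeR adjusted p of 0.0624. At these depths no diet difference in nuclear genes of mitochondria-led barcodes passed the threshold, and few genes could be tested.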

How the data were processed

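The authors deposited a raw count of UMIs for each of 19065 genes in each barcode, made with Cell Ranger 8.0.0 per the submitters' processing notes, which name the builds mm10 and GRCm39. Whether barcodes were filtered further, and how doublets were treated, is not given in the sources used here; no doublet caller was run. Counts were summed per mouse and class, leaving out mitochondrial and haemoglobin genes, and compared by edgeR (version 4.0.16, under R 4.3.3; filterByExpr with minimum count 5, TMM, robust quasi-likelihood F test, mouse as a block since both sums come from 1 library, Benjamini-Hochberg), with at least 10 barcodes per class and mouse. TMM was applied to totals over the tested genes. The test was run on simulated counts with the same fixed spread for every gene and no difference in gene levels between mice. That check does not cover the spread between these mice. DESeq2 1.42.0 was an alternative. Gene positions and lengths are from GENCODE M21 (GRCm38), with a length for 18947 of 19048 nuclear genes. Intervals (95%) and floors (3 counts) reflect counting error alone. Libraries differed well beyond sampling noise (chi-square over its degrees of freedom, 6.00 to 96.8), so none was a copy. Named genes are the 13 mitochondrial mRNAs, the 10 nuclear genes with most UMIs in the class, up to 12 called genes per direction with at least 20 UMIs in the compared sums, if fewer than 10 are called also the 8 with the smallest p in each direction, and up to 4 tested members of a list. Marker genes at 0 and the leading members of the oxidative phosphorylation list were chosen after their values were seen. The members and lists were chosen with earlier results of these data known. The labels call the samples biological replicates. The edgeR p-values between classes measure the spread of the class difference over 5 mice. The permutation p-values for diet measure the spread between up to 8 mice. The edgeR p-values for diet measure it between 4 corn oil/cellulose and 3 fish oil/pectin mice.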

Additional observations from a re-analysis of the deposited data

Results flagged for a closer look

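A signal outside the comparisons came from shallow barcodes: 2588 of the 5956 barcodes under 100 UMIs also met both share limits, 2231 of them in CO1, more than the 235 barcodes of the class. They were left out by the depth limit and enter only as a reference.

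The share of mt-Nd4l in mitochondria-led over other barcodes stood apart in CO1, at -1.04 on the log2 scale. It was the only one of 35 groups of values tested in this way whose farthest sample passed Dixon's 95% limit, and chance flags about 1 in 20.

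The share of fatty acid oxidation genes moved in opposite directions by diet: the log2 ratio of mitochondria-led to other barcodes was above 0 in all 3 corn oil/cellulose mice with enough barcodes and below 0 in both fish oil/pectin mice, a difference of -1.68 between the means. This difference was not tested, and it rests on few UMIs in mitochondria-led barcodes: 4, 8 and 14 in CO1, CO3 and CO4, 3 in FP2 and 4 in FP3. The exact 95% intervals of the share in FP2 (0.0343 to 0.484%) and FP3 (0.0487 to 0.457%) include the share in other barcodes, 0.304% and 0.228%.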

How the results depend on the processing

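The count of 7 called nuclear genes depended on the processing. It was 1 with DESeq2, 169 (0 higher) of 16543 genes without a count filter, 0 with a mitochondrial share of at least 60%, 0 with at least 200 UMIs per barcode, 4 with other barcodes under 25% mitochondrial share and 1 of 17 genes with the larger sum thinned. Chosen after seeing the data, UMI totals as the scaling gave 12 and genes filtered by their level in other barcodes gave 15, of which 6 were among the 7. Without the replicate block by mouse the count was 0, with 24 genes at an unadjusted p under 0.05. Leaving out 1 mouse gave 0 to 12; it was 0 without CO1 or FP3, 2 without FP2 and 12 without CO3. The cause was not tested. Without a count filter, where the median log2 fold change was -1.93, values turned negative for Fth1 (-0.045), Stard10 (-0.28), Ptms (-0.38), Crip1 (-0.38) and Cox8a (-0.35).

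For diet, the difference in the share of barcodes was 0.023 points at a mitochondrial share of at least 60% and 6.84 within pool 2. That in the share of library UMIs was 1.56 within pool 2. Leaving out 1 mouse, these 2 ranged from -6.85 to 3.11 and from -4.35 to 1.62 points, and the median of non-mitochondrial UMIs from -60.4 to 20.4; none was called. The diet replicates share only a number: a replicate block called 0 of 21 genes. Of 390 values for mitochondrial genes, lists and short transcripts under other limits or without a mouse, 386 moved by less than the SD between mice. Depth limits the class: FP3 gave 15 nuclear UMIs per barcode.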
